A study of Mus musculus with 24 samples.

Results

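The response of bone marrow-derived macrophages to interleukin-4 (IL-4) was measured in cells that lack Ltb4r2, the gene for the leukotriene B4 receptor BLT2. Of the 24 RNA-seq libraries in the study, 8 carry this comparison: 4 of M2-like Ltb4r2-/- macrophages and 4 of unpolarized (M0) Ltb4r2-/- macrophages. All of these cells came from mice with a global deletion of Ltb4r2, were grown from bone marrow for 7 days with 10 ng/ml M-CSF, and the M2 cells then received 10 ng/ml IL-4 for 16 h. WT littermate macrophages handled in the same way, 4 M2 and 4 M0 libraries, served as the reference for the genotype. The ages of the mice are not given in the sources used here, and the deletion is present in every cell of the animal rather than in macrophages alone. Of the 24557 genes in the count table, 11893 had a count in the 8 libraries and 2306 had enough counts to be tested.

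IL-4 binds a receptor that contains IL-4Rα and signals through JAK kinases to the transcription factor STAT6, which dimerizes and binds palindromic DNA elements. In macrophages this leads to alternative activation, a state known for arginase, chitinase-like proteins, resistin-like molecules, C-type lectin receptors, lipid uptake and, in the mouse, entry into the cell cycle in vivo. BLT2 is a low-affinity G protein-coupled receptor for leukotriene B4 and related lipids, and BLT1, encoded by the neighbouring gene Ltb4r1, is the high-affinity receptor.

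The libraries were shallow, with 427825 to 643308 counts each, so a count of 0 in one library allowed up to 7.33 CPM in the shallowest library, where CPM is the count scaled to 1e6 counts of the library after TMM scaling. This and all floors below take 3 counts as the limit of a count of 0 and cover counting error only. Ltb4r2 itself had 0, 0, 0 and 2 counts in the M2 libraries, against 0, 1, 4 and 5 counts in the M0 libraries, and Ltb4r1 had at most 2 counts in any of them, so these counts do not check the genotype. Each library was placed on an axis over the 861 genes called below. The axis runs from the mean M0 profile of the other libraries at 0 to their mean M2 profile at 1. These genes were called from the same libraries, so the gap between the states on this axis is built in. M2 replicate 1 lay at 0.81, the other M2 libraries at 0.98 to 1.07 and the M0 libraries at -0.0014 to 0.033. M2 replicate 1 was the M2 library nearest to M0 for 237 of the 451 genes called higher and 195 of the 410 genes called lower. Tsix was counted 1257 to 2538 times in replicates 2 and 3 of both states and 0 or 1 times in replicates 1 and 4, which places 2 libraries of each kind in each state. Genes whose exons share bases with exons on the opposite strand made up 24.1% of the placed genes and held 89.8% to 90.8% of the counts of a library. The libraries were prepared by a strand-specific protocol, but the sources used here do not say which strand option the counting used, so reads of such a gene and of its opposite-strand partner cannot be told apart. A value below is therefore the value under a gene symbol, and the partner is named where its own counts are described. Genes below whose partners are not described further are, among the IL-4, lipid and metabolic genes, Stat6 (Nab2), Slc7a2 (Gm26584), Lpcat3 (Emg1), Npc1 (Rmc1), Acadvl (Dvl2), Crat (Gm16323), Aldoa (Fam57b), Pfkp (Pitrm1), Atp5f1 (Wdr77), Ptgs1 (Gm43621) and Sphk1 (Gm29292). Among the others they are Tk1 (Afmid), Mcm7 (Ap4m1), Hsp90b1 (1810014B01Rik), Ddit3 (Mars), Rac1 (Daglb), Arpc1b (Pdap1), Cfl1 (Snx32), Csf1r (Hmgxb3), Cx3cr1 (Gm33858), Hexa (Tmem202), Cxcl16 (Zmynd15), Nfkb2 (Psd), Mmp12 (Mmp1b), Tep1 (Gm26782), Cyb5r3 (Gm49463) and Tsix (Xist).

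Macrophage identity was visible in the counts. All 24 macrophage markers had a count, 15 of them passed the filter on low counts, and their summed level was 1507 to 1677 CPM in M2 libraries and 3040 to 3527 CPM in M0 libraries. Of 67 markers of lymphocytes, neutrophils, mast cells and other granulocytes, erythroid cells, and stromal and endothelial cells, 25 had any count and 0 had enough counts to be tested. Dendritic cell markers summed to 161 to 229 CPM in M2 libraries and 72.5 to 137 CPM in M0 libraries, and of these 11 genes only Itgax, Xcr1 and Clec9a were testable.

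In Ltb4r2-/- macrophages Retnla, Arg1, Clec7a, Itgax, Cd36, Lpl and Tk1 were higher in M2 cells, and Cx3cr1, Apoe, Stab1 and Lyz2 were lower. Of 2306 genes, 861 (37.3%) passed an adjusted p of 0.05 in edgeR's quasi-likelihood test, 451 (19.6%) higher in M2 cells and 410 (17.8%) lower. More than 2-fold changes were seen for 251 of the higher and 220 of the lower genes, and the median log2 fold change of all tested genes was -0.0015. In 879 genes (38.1%) the 4 M2 libraries did not overlap the 4 M0 libraries. Without M2 replicate 1 the count was 940 genes, 798 of them shared with the 861.

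**Figure D1:**
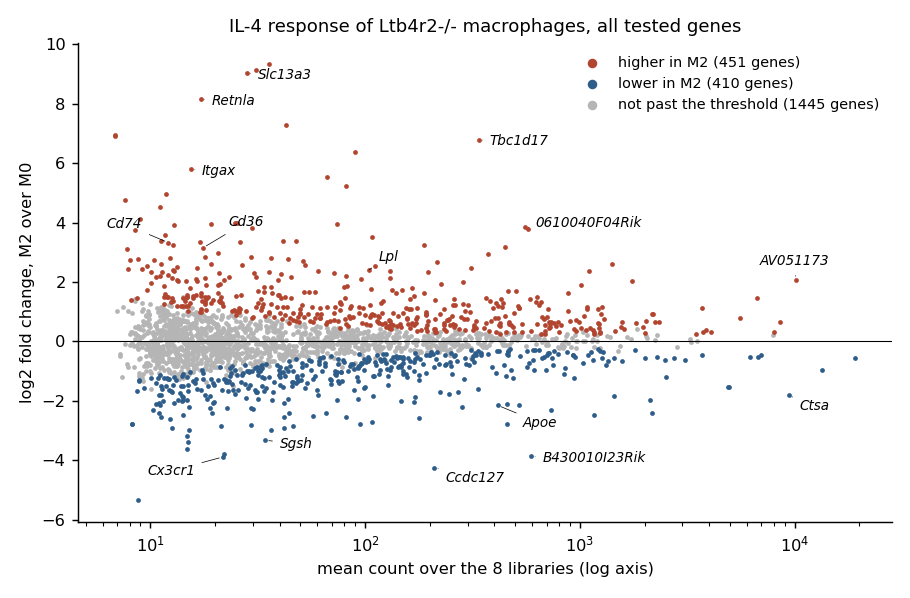
Log2 fold change (M2 over M0) of the 2306 tested genes in Ltb4r2-/- macrophages against their mean count over 8 libraries, on a log axis. Red points are the 451 genes higher in M2 cells, blue points the 410 genes lower in M2 cells, and grey points did not pass the threshold. Several of the largest rises, among them Retnla and Itgax, sit at mean counts below 20 with few or no counts in M0 cells.

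Retnla, Arg1 and Clec7a, markers of alternative activation, rose. Retnla (chr16:48842551-48844461, GRCm38), which encodes the secreted resistin-like molecule RELMα, had 74, 22, 14 and 27 counts in M2 replicates 1 to 4, against 0 in every M0 library. Its pooled level was at least 53.3-fold higher in M2 cells, with the M0 floor taken as 3 counts over the group (adjusted p = 8.54e-06). Chil3, which encodes the chitinase-like protein Ym1, had 20, 22, 2 and 23 counts in M2 libraries and 0 in every M0 library, at least 26.1-fold higher, but was too sparse to be tested in these cells. Arg1 (chr10:24915221-24927484), the arginase that turns arginine into ornithine and urea, had 12, 21, 13 and 25 counts in M2 libraries, against 5, 3, 1 and 3 in M0 libraries. The Arg1 groups did not overlap, and the log2 fold change was 2.73 ± 0.53 (SE, adjusted p = 0.00058). Clec7a (chr6:129461591-129472779), which encodes the β-glucan receptor dectin-1, averaged 71.2 ± 18.7 CPM in M2 libraries and 8.66 ± 9.02 CPM in M0 libraries (SD, n = 4 each), a log2 fold change of 2.96 ± 0.49. M0 replicate 3, with 14 counts of Clec7a, stood above the other M0 libraries, which had 2, 1 and 4.

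The list of 30 IL-4 induced macrophage markers had 27 members with a count, of which 5 could be tested. Retnla, Clec7a, Arg1 and Cd300ld were higher and Il4i1 was lower (median log2 fold change 2.73, beside -0.0015 over all tested genes). Among all tested genes 19.6% rose and 17.8% fell. The filter keeps a sparse gene with enough counts in a single state, and the markers that rose met it in M2 libraries. Their direction and the median thus lean on the filter and do not describe the whole list. The same limit holds for the counts and medians of the other lists below. Cd36, Itgax and Cd74, for example, met the filter in M2 libraries, and Cx3cr1 and Clec4n met it in M0 libraries. Cd300ld, a receptor gene of myeloid cells, had the smallest rise of these in edgeR's test (log2 fold change 1.20 ± 0.45, adjusted p = 0.0463), and its groups overlapped. It lost its call under 10 of the alternative settings, among them DESeq2 and the fits without M2 replicates 3 or 4. The call was also lost without M0 replicates 1, 2 or 4 (log2 fold change 0.88 without M0 replicate 4). Of the 22 members that could not be tested, 10 had all M2 libraries above all M0 libraries and 0 had the reverse order. The share of other untested genes with either order was not computed, so these counts have no direct reference. Among the 2306 tested genes, which passed the filter on low counts, 38.1% had groups that did not overlap, with both directions counted. Egr2, a zinc finger transcription factor, had 7, 12, 11 and 16 counts in M2 libraries and 0 in every M0 library, at least 17.9-fold higher. Slc7a2, a cationic amino acid transporter that brings in arginine, had 14, 11, 8 and 1 counts in M2 libraries and 0 in M0 libraries. The lectin receptor gene Mgl2 (6, 7, 2 and 12 counts), the chemokine gene Ccl22 (6, 3, 8 and 6) and the E-cadherin gene Cdh1 (3, 6, 3 and 6) were likewise at 0 in all M0 libraries. Counts of Mrc1, the gene of the mannose receptor, were 23, 17, 2 and 14 in M2 libraries, against 2, 0, 4 and 2 in M0 libraries, so that M2 replicate 3 fell within the M0 range.

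Promoter windows of the leading markers were read from RefSeq (GRCm38.p6) and searched for the palindromic element bound by STAT proteins, spelled TTCNNNGAA or the same with 1 more N, which reads the same on both strands. Retnla, Clec7a and Itgax are shown as markers that rose in M2 cells and hold 1 match each, printed in capitals, upstream of its transcription start. They were picked with the matches known. Of the other markers searched, Chil3 (1 match) and Lgals3 (2 matches) also held matches before the start. Cd36 held 1 match after the start and Ccl9 held 0. No promoter window was available for Arg1, Lpl and Cd74. The windows lie at chr16:48842404-48842533 (plus strand) for Retnla, chr6:129472841-129472970 (minus strand) for Clec7a and chr7:128129363-128129492 (plus strand) for Itgax, and the match begins at position -145 for Retnla and -127 for Itgax.
Retnla: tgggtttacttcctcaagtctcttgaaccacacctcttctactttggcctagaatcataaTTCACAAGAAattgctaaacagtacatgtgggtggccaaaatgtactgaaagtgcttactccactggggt
Clec7a: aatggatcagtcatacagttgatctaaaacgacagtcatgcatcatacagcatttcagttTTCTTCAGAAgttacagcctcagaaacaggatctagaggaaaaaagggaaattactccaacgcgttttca
Itgax: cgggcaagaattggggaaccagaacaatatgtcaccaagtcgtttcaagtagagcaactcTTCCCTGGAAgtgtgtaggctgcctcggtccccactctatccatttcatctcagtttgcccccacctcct
All 3 matches have the spacing of 4 bases. Over windows of 250 bases before to 50 bases after the start, a match was present for 46 of 351 genes higher in M2 cells (13.1%), 35 of 302 genes lower in M2 cells (11.6%), 248 of 1819 tested genes (13.6%) and 4483 of 27025 genes of the promoter table (16.6%). The share among genes that rose was thus close to that among all tested genes. A match is a description of the letters and not of binding.

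The largest rise by the naming rule was under Tbc1d17, which lies opposite Il4i1 on chromosome 7 and shares 3423 exonic bases with it. Tbc1d17, a Rab GTPase-activating protein gene, had 805, 559, 626 and 690 counts in M2 libraries, against 9, 12, 6 and 1 in M0 libraries, a log2 fold change of 6.78 ± 0.26 (adjusted p = 5.54e-12). Il4i1 encodes an L-amino acid oxidase and takes its name from induction by IL-4. Counts under Il4i1 itself were 12, 8, 0 and 6 in M2 libraries, against 12, 37, 16 and 20 in M0 libraries (log2 fold change -1.49 ± 0.55, adjusted p = 0.0416), and this fall was lost in DESeq2 and without M2 replicate 3 (-1.128), M2 replicate 4 (-1.45), M0 replicate 2 (-1.125) or M0 replicate 4 (-1.56). The antisense transcript 0610040F04Rik, which shares 118 exonic bases with Bhlhe40, had 1057, 982, 919 and 1133 counts in M2 libraries, against 67, 80, 76 and 115 in M0 libraries (log2 fold change 3.84 ± 0.15). Bhlhe40, a basic helix-loop-helix transcription factor gene, had 6, 0, 0 and 1 counts in M2 libraries and 0 in M0 libraries. Of the 15 largest rises named, 13 were under symbols with an opposite-strand exon overlap, and of the 15 largest falls 10 were. Among placed genes, 1569 of 2274 tested and 644 of 848 called genes had such an overlap. The naming rule also asked for a mean of at least 50 counts. Over all tested genes, 644 of 1569 genes with such an overlap (41.0%) and 204 of 705 without one (28.9%) were called, and their median mean counts were 62 and 18.1.

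**Figure D2:**
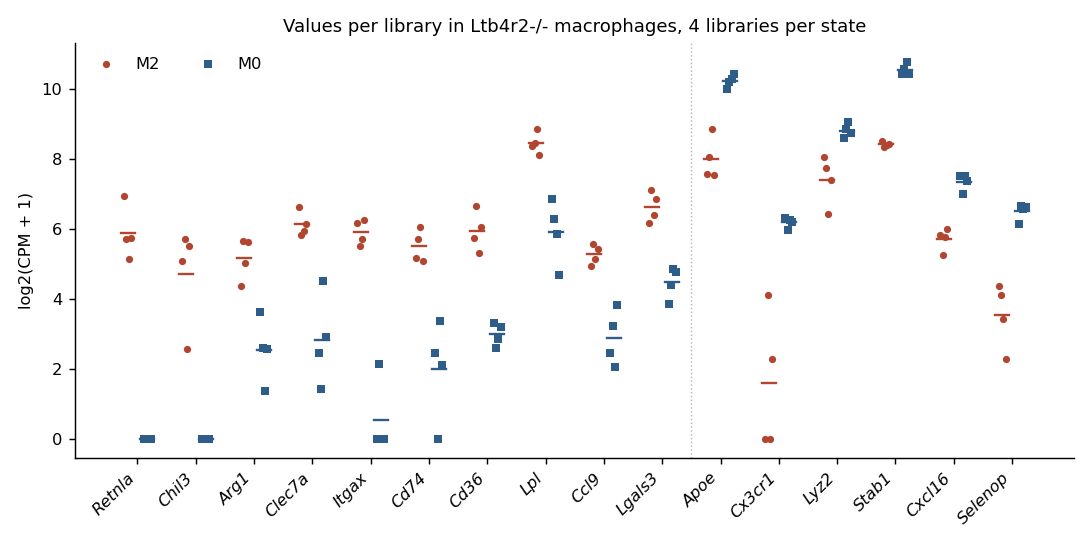
Values per library as log2(CPM + 1) for 16 genes in Ltb4r2-/- macrophages, with M2 libraries as red circles, M0 libraries as blue squares and the mean of each group as a line. The 10 genes left of the dotted line were higher and the 6 right of it lower in M2 cells, and no M2 library overlaps an M0 library in any of the 16. Among all tested genes, 38.1% had groups that did not overlap. The 16 genes were chosen with earlier results of these data known, and the rule for the largest falls, which named Apoe and Stab1, required it. The lack of overlap is thus no separate result.

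Itgax, Itgb2 and Ilk of the adhesion genes and Cd74 and Ctss of the antigen presentation genes were higher in M2 cells, while most testable members of either list did not pass. Itgax (chr7:128129547-128150657), which encodes the integrin αX chain CD11c, had 43, 19, 21 and 39 counts in M2 libraries, against 0, 2, 0 and 0 in M0 libraries. Its log2 fold change was 5.79 ± 0.65 (adjusted p = 2.01e-06). Itgax is also a dendritic cell marker, and the other testable dendritic cell markers, Xcr1 (log2 fold change 0.72) and Clec9a (-0.18), did not pass the test. Cd74, the invariant chain that guides MHC class II, had 21, 22, 27 and 17 counts in M2 libraries, against 2, 0, 6 and 2 in M0 libraries (log2 fold change 3.32 ± 0.57). Dexi, which lies opposite Ciita, the class II transactivator gene, had 97, 63, 72 and 65 counts in M2 libraries, against 2, 10, 10 and 11 in M0 libraries (log2 fold change 3.39 ± 0.30). Among 6 testable genes of MHC class II and antigen presentation, Cd74 and the cathepsin gene Ctss (log2 fold change 0.83) rose and 0 fell, with a median of 0.50, where 19.6% of all tested genes rose and 17.8% fell. B2m, the light chain of MHC class I, had a log2 fold change of 0.81 and missed the threshold.

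Of 11 testable integrin and adhesion genes, 3 rose and 0 fell (median 0.35), a share of rises not far from the 19.6% of all tested genes. Besides Itgax these were Itgb2, the β2 chain that pairs with CD11c (log2 fold change 1.46 ± 0.44), and Ilk, the integrin-linked kinase gene. Itgb2 lost its call without M2 replicate 2 (log2 fold change 1.14). Ilk had 787, 568, 639 and 711 counts in M2 libraries, against 327, 420, 355 and 339 in M0 libraries (log2 fold change 1.12 ± 0.12, adjusted p = 8.69e-07), and it shares exonic bases with Taf10 and Rrp8, whose log2 fold changes of 0.11 and 0.18 did not pass. Epha1, opposite the focal adhesion gene Zyx, had 291, 345, 333 and 373 counts in M2 libraries, against 40, 38, 59 and 32 in M0 libraries (log2 fold change 3.24 ± 0.20). Cerkl, opposite the integrin α4 gene Itga4, fell (log2 fold change -1.82 ± 0.11), while Itga4 itself was at 0.00.

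The actin cytoskeleton and migration list had 15 testable members, of which 5 rose and 1 fell (median 0.71), against 19.6% and 17.8% of all tested genes. Lgals3, which encodes the β-galactoside binding lectin galectin-3, had 43, 59, 34 and 60 counts in M2 libraries, against 6, 12, 18 and 16 in M0 libraries (log2 fold change 2.17 ± 0.32). Actb, the β-actin gene, had 121, 121, 59 and 112 counts in M2 libraries, against 30, 46, 69 and 61 in M0 libraries (log2 fold change 1.24 ± 0.22). The Actb counts are low for a gene that every cell uses. Rac1 (0.80), Arpc1b (1.03) and Cfl1 (1.36), a small GTPase, an Arp2/3 subunit and the actin severing protein cofilin, rose on the log2 scale as well. The member that fell was Cx3cr1, the receptor for fractalkine, which had 0, 7, 0 and 2 counts in M2 libraries, against 35, 37, 49 and 44 in M0 libraries (log2 fold change -3.88 ± 0.60, adjusted p = 6.66e-05).

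Cd36, Lpl, Lpcat3 and Npc1 rose and the apolipoprotein gene Apoe fell. Cd36 (chr5:17781690-17888801), the scavenger receptor that takes up fatty acids and oxidized lipoproteins, had 32, 43, 16 and 34 counts in M2 libraries, against 4, 3, 4 and 5 in M0 libraries. Its groups did not overlap, with a log2 fold change of 3.15 ± 0.43 (adjusted p = 1.79e-05). Lpl (chr8:68880491-68907448), the lipase that releases fatty acids from lipoprotein triglycerides, had 199, 152, 192 and 145 counts in M2 libraries, against 51, 46, 37 and 15 in M0 libraries (log2 fold change 2.41 ± 0.29). Lpcat3, a phospholipid remodelling enzyme, averaged 1408 ± 161 CPM in M2 libraries and 641 ± 62.8 CPM in M0 libraries (SD, n = 4 each), a log2 fold change of 1.13. Npc1, which exports cholesterol from lysosomes, rose by 0.85 on the log2 scale. Apoe (chr7:19696109-19699188) had 115, 114, 191 and 96 counts in M2 libraries, against 454, 702, 802 and 846 in M0 libraries (log2 fold change -2.15 ± 0.22, adjusted p = 7.32e-07). Of 9 testable genes of PPARγ, LXR and lipid handling, 4 rose and 1 fell, with a median log2 fold change of 0.69. The shares over all tested genes were 19.6% higher and 17.8% lower. Cd36 passed the filter on low counts through its M2 libraries, so the count and median of this list lean on the filter too.

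No change was detected under the symbols of fatty acid oxidation genes at this depth. Of the 4 testable genes 0 passed in either direction. Of 2 testable symbols opposite such genes, 0 rose and 1 fell, 4931431C16Rik opposite Acox3 (log2 fold change -0.81 ± 0.09). Cpt1a, the carnitine transferase at the mitochondrial entry step, had a log2 fold change of -0.01 ± 0.23, and Acadvl and Crat had ones of 0.56 and 0.73. In cholesterol synthesis, Mvd (-0.68) and Sqle (-0.19) did not pass. Fdft1, the squalene synthase gene, fell with 12371, 7066, 6013 and 7885 counts in M2 libraries, against 15965, 19853, 21201 and 16531 in M0 libraries (log2 fold change -0.95 ± 0.10). Fdft1 shares 774 exonic bases with the cathepsin gene Ctsb, whose own counts had a log2 fold change of -0.10 ± 0.16.

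Of 8 testable glycolysis genes, 4 rose and 0 fell (median 0.81), against 19.6% and 17.8% of all tested genes. Aldoa, the aldolase gene, averaged 46.9 ± 5.32 CPM in M2 libraries and 16.5 ± 7.73 CPM in M0 libraries (SD, n = 4 each; log2 fold change 1.53 ± 0.38), and Pfkp, the platelet phosphofructokinase, rose by 0.61. The pyruvate kinase gene Pkm (1.07) and the lactate exporter gene Slc16a3 (1.02) rose in the main test and lost their calls in DESeq2 and without a filter on low counts. Slc16a3 also lost it without M0 replicate 1 (0.88), M0 replicate 4 (0.90) or M2 replicate 3 (0.87). Chaperones of the endoplasmic reticulum moved the same way, with 4 of 6 testable genes higher and 0 lower (median 0.87), beside the same shares. Calr, the calcium-binding chaperone calreticulin, had 125, 91, 110 and 127 counts in M2 libraries, against 43, 52, 44 and 52 in M0 libraries (log2 fold change 1.47 ± 0.17, adjusted p = 4.21e-06). Hspa5, which encodes the chaperone BiP, averaged 71.3 ± 17.6 CPM in M2 libraries and 24.9 ± 8.21 CPM in M0 libraries, a log2 fold change of 1.53 ± 0.33. Hsp90b1 rose by 0.87, and Ddit3, the stress transcription factor CHOP, by 0.66, a call lost under 8 alternatives, including the fits without M2 replicates 2 or 3 or without M0 replicates 1, 2 or 4 (lowest value 0.53). Oxidative phosphorylation had 1 gene higher of 6, Atp5f1 (0.82), and the 20 testable ribosomal protein genes had 0 calls and a median of 0.18. Of 5 testable symbols opposite oxidative phosphorylation genes, 2 rose and 0 fell. Of 8 opposite ribosomal protein genes, 5 rose and 1 fell (median 0.30). Among all tested genes with such an overlap, 41.0% were called.

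**Figure D3:**
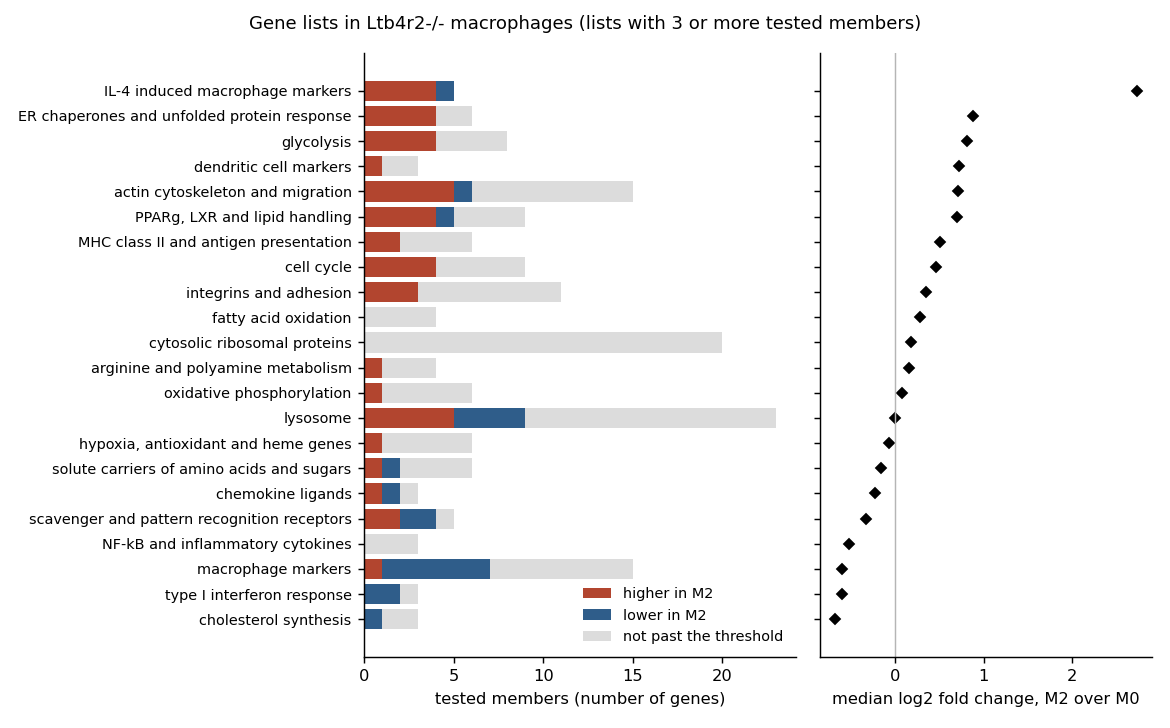
Gene lists with 3 or more tested members in Ltb4r2-/- macrophages, ordered by median log2 fold change (M2 over M0, right). Bars on the left count tested members that were higher in M2 cells (red), lower (blue) or not past the threshold (grey). Over all tested genes the median is -0.0015, with 19.6% higher and 17.8% lower. Sparse members can pass the filter on low counts through a single state, so list counts and medians lean on the filter.

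Tk1, Ccna2, Kif20a and Ccnd3 of the cell cycle genes were higher in M2 cells. Of 9 testable cell cycle genes, 4 were higher and 0 lower, against 19.6% and 17.8% of all tested genes, with a median log2 fold change of 0.46. Tk1, the thymidine kinase of S phase, had 264, 162, 152 and 228 counts in M2 libraries, against 53, 75, 99 and 76 in M0 libraries (log2 fold change 1.63 ± 0.14, adjusted p = 8.64e-08). Ccna2, the cyclin A2 gene, had 499, 455, 443 and 506 counts in M2 libraries, against 281, 395, 427 and 381 in M0 libraries, and in CPM its groups did not overlap (log2 fold change 0.61 ± 0.11). Kif20a, a kinesin of cytokinesis, rose by 0.55 and the cyclin D3 gene Ccnd3 by 1.47, the second call being lost without M0 replicate 1 (1.295), without M0 replicate 3 (1.19) and in the fit of all 24 libraries. Ccne2 (0.03), Ccnd1 (-0.06), Mcm7 (0.17), Aurka (-0.11) and Mki67 (0.46) did not pass.

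Of 7 testable symbols with exons opposite a cell cycle gene, 5 rose and 1 fell, with a median of 2.47. Among all tested genes with an opposite-strand overlap, 41.0% were called in either direction. Exosc9, an RNA exosome subunit gene that shares 510 exonic bases with Ccna2, had 822, 851, 676 and 819 counts in M2 libraries, against 48, 108, 145 and 121 in M0 libraries (log2 fold change 3.18 ± 0.18). Ints8, an Integrator subunit gene that shares 609 exonic bases with the cyclin E2 gene Ccne2, had 903, 1186, 986 and 1130 counts in M2 libraries, against 71, 107, 118 and 73 in M0 libraries (log2 fold change 3.78 ± 0.18). Oraov1, which shares 1100 exonic bases with the cyclin D1 gene Ccnd1, had 2174, 2196, 2739 and 2285 counts in M2 libraries, against 348, 505, 608 and 432 in M0 libraries (log2 fold change 2.59 ± 0.16). Cdc23, opposite Kif20a, rose by 2.47, and Bysl, opposite Ccnd3, by 0.65. Paqr4, which is not among the 7, lies opposite the Wee1-family kinase gene Pkmyt1 and rose by 3.53. For Exosc9, Ints8, Oraov1 and Paqr4 the naming rule itself required groups that did not overlap. Cdc23 was named as an opposite-strand symbol, and there every M2 library also stood above every M0 library. The symbol that fell was Pmel, opposite Cdk2 (-1.16). Lrrc41, opposite the recombination gene Rad54l, rose by 2.67 while Rad54l was at 0.26 ± 0.17.

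**Figure D4:**
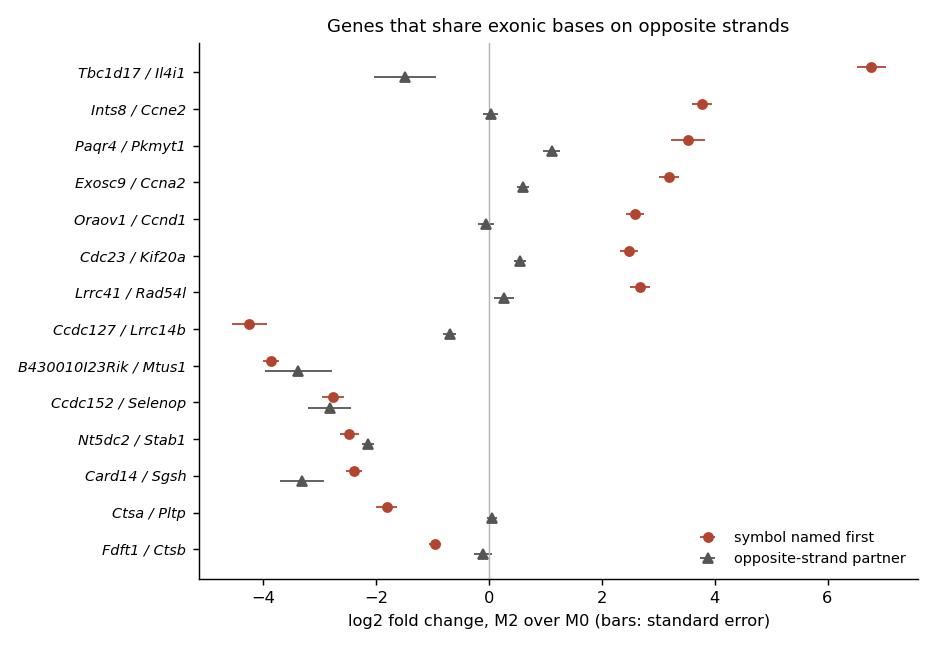
Log2 fold change (M2 over M0, points) with its standard error (bars) for 14 pairs of genes that share exonic bases on opposite strands, with the first-named symbol as red circles and its partner as grey triangles. In the 7 upper pairs the first symbol rose by 2.47 or more while partners lay between -1.49 and 1.11. Of the lower pairs, Mtus1, Selenop, Stab1, Sgsh and, by a smaller amount, Lrrc14b (-0.70) fell with their partners.

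Several macrophage marker genes fell. Of the 15 testable macrophage markers, 6 were lower, 1 (Lgals3) was higher, and the median log2 fold change was -0.60. Over all tested genes 17.8% were lower and 19.6% higher. Lyz2, the macrophage lysozyme gene, had 160, 92, 35 and 87 counts in M2 libraries, against 173, 273, 341 and 259 in M0 libraries (log2 fold change -1.28 ± 0.22). Besides Lyz2, Apoe and Cx3cr1, the complement gene C1qc (-1.01), the cathepsin D gene Ctsd (-0.77) and the perforin-like gene Mpeg1 (-0.60) fell. The lineage markers Adgre1, Csf1r, Cd68 and Itgam did not pass, with log2 fold changes of -0.21, -0.55, -0.83 and 0.35. In such bulk libraries fewer cells with a marker and less RNA per cell cannot be told apart.

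Stab1, a scavenger receptor of alternatively activated and sinusoidal cells, had 222, 138, 138 and 177 counts in M2 libraries, against 619, 905, 1141 and 839 in M0 libraries (log2 fold change -2.15 ± 0.11, adjusted p = 4.54e-10). Nt5dc2, which shares 112 exonic bases with it, fell by 2.48 on the log2 scale. Selenop, the selenium carrier protein gene, had 12, 7, 4 and 2 counts in M2 libraries, against 31, 59, 61 and 60 in M0 libraries (log2 fold change -2.83 ± 0.38), and its opposite symbol Ccdc152 fell by 2.76. Clec4n, which encodes the fungal receptor dectin-2, fell (log2 fold change -1.61), in contrast to the related receptor gene Clec7a. Of 5 testable scavenger and pattern recognition receptors, 2 rose (Cd36 and Clec7a) and 2 fell (Stab1 and Clec4n). When M2 replicate 1 was left out, 3 fell. Over all tested genes 19.6% rose and 17.8% fell.

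Of 23 testable lysosomal genes, 5 were higher and 4 lower, close to the 19.6% and 17.8% of all tested genes, with a median log2 fold change of 0.00. Hexa, a β-hexosaminidase subunit gene, rose (log2 fold change 1.65 ± 0.24). Sgsh, the heparan sulfamidase gene, had 7, 5, 1 and 8 counts in M2 libraries, against 31, 56, 76 and 90 in M0 libraries (log2 fold change -3.32 ± 0.39). Card14, which shares 955 exonic bases with Sgsh, had 1023, 447, 421 and 611 counts in M2 libraries, against 3124, 3717, 4256 and 3727 in M0 libraries (log2 fold change -2.39 ± 0.14). Ctsa, the protective protein cathepsin A gene, had 4419, 2244, 4834 and 2961 counts in M2 libraries, against 12027, 15255, 19325 and 13879 in M0 libraries (log2 fold change -1.81 ± 0.19). Ctsa overlaps the phospholipid transfer protein gene Pltp, whose log2 fold change was 0.05 ± 0.09. Of 12 testable symbols opposite a lysosomal gene, 2 rose and 7 fell, with a median of -0.57. Among all tested genes with such an overlap, 41.0% were called in either direction.

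The largest falls by the naming rule were under Ccdc127 and B430010I23Rik. Ccdc127 had 37, 4, 6 and 28 counts in M2 libraries, against 367, 366, 347 and 528 in M0 libraries (log2 fold change -4.25 ± 0.32), and its opposite-strand partner Lrrc14b fell by 0.70. B430010I23Rik had 105, 49, 46 and 71 counts in M2 libraries, against 988, 1099, 1172 and 1228 in M0 libraries (log2 fold change -3.86 ± 0.14). Its partner Mtus1, a microtubule-associated tumour suppressor gene, fell by 3.38. Among genes with no opposite-strand exon, Rmdn1 had 184, 61, 69 and 108 counts in M2 libraries, against 713, 765, 1035 and 713 in M0 libraries (log2 fold change -2.76 ± 0.19). In Ccdc127 and Rmdn1 the 2 M2 libraries with the most counts were replicates 1 and 4.

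Inflammatory genes were mostly too sparse to test. Cxcl16, a chemokine and scavenger receptor, had 34, 16, 22 and 33 counts in M2 libraries, against 81, 75, 117 and 100 in M0 libraries (log2 fold change -1.62 ± 0.22). Ccl9, a CC chemokine that attracts CCR1-bearing cells, had 18, 20, 14 and 22 counts in M2 libraries, against 2, 5, 2 and 8 in M0 libraries (log2 fold change 2.33 ± 0.46), and Ccl3 was at -0.22 ± 0.18. Parp9 (-0.60) and Dtx3l (-0.84) encode a mono-ADP-ribosyltransferase and its ubiquitin ligase partner and share exonic bases. Both fell, of 3 testable interferon response genes, where 17.8% of all tested genes fell. None of the 3 testable NF-κB and cytokine genes, Nfkb2, Rela and Il1a, passed edgeR's adjusted test, with log2 fold changes of 0.08, -0.53 and -0.88. Gm14023, a transcript opposite Il1a, rose (log2 fold change 2.30 ± 0.31). Among eicosanoid synthesis and receptor genes, 2 of 28 were testable. Ptgir, the prostacyclin receptor gene, had 232, 207, 179 and 200 counts in M2 libraries, against 112, 133, 184 and 137 in M0 libraries (log2 fold change 0.77 ± 0.13, adjusted p = 0.000163). Ptgs1, the constitutive cyclooxygenase gene, was at -0.04 ± 0.43. Of the 28 genes of IL-4 receptor signalling, only Stat6 was testable, and it rose (log2 fold change 0.72 ± 0.20).

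Other large rises by the naming rule belonged to no list. Hectd2, a ubiquitin ligase gene, had 115, 234, 210 and 149 counts in M2 libraries, against 0, 5, 1 and 4 in M0 libraries (log2 fold change 6.37 ± 0.47), and the transcript Hectd2os on its other strand rose by 2.26. Nudt6, opposite the growth factor gene Fgf2, had 102, 148, 135 and 132 counts in M2 libraries, against 2, 1, 4 and 6 in M0 libraries (log2 fold change 5.53 ± 0.36). Clic4, an intracellular chloride channel gene with no opposite-strand exon, had 90, 85, 62 and 110 counts in M2 libraries, against 10, 14, 14 and 24 in M0 libraries (log2 fold change 2.71 ± 0.25). Among the most abundant symbols, AV051173 had 13259, 16309, 17273 and 16288 counts in M2 libraries, against 4209, 4688, 5190 and 3838 in M0 libraries (log2 fold change 2.07 ± 0.16). In RefSeq it overlaps the peroxiredoxin gene Prdx1 by 424 bases on the other strand of chromosome 4, and Prdx1 rose as well (log2 fold change 1.49 ± 0.40). Tctn1, opposite the voltage-gated proton channel gene Hvcn1, rose by 1.46, while Hvcn1 fell by 0.77.

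Besides Retnla, 5 called genes were at 0 in all 4 M0 libraries, and these were picked after their values were seen. Slc13a3, a sodium-dependent dicarboxylate carrier with no opposite-strand exon, had 34, 78, 75 and 38 counts in M2 libraries, at least 87.6-fold higher in M2 cells. Mmp12, the macrophage elastase gene, had 51, 90, 38 and 70 counts in M2 libraries and was at least 96.9-fold higher. Plet1os, opposite Plet1, had 43, 85, 62 and 94 counts and was at least 111-fold higher, and Nes and Sphk1, the nestin and sphingosine kinase genes, were each at least 21.4-fold higher. No called gene was at 0 in all M2 libraries.

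The same contrast was made in WT macrophages to ask whether the response differed with the genotype. In WT cells 750 of 2206 genes (34%) were called, 381 higher and 369 lower in M2. Of 2095 genes tested in both genotypes, 821 were called in Ltb4r2-/- cells and 726 in WT cells, and 602 were called in both, which is 73.3% of the Ltb4r2-/- calls and 82.9% of the WT calls. All 602 changed in the same direction, and 816 of the 821 Ltb4r2-/- calls had the same sign in WT. Across these genes, which are not independent replicates, the log2 fold changes of the genotypes had a Pearson correlation of 0.90 and a Spearman correlation of 0.85; no library enters both. Among genes called in Ltb4r2-/- cells, the slope of the WT on the Ltb4r2-/- log2 fold change was 0.80, for genes chosen by their size in Ltb4r2-/- cells. Log2 fold changes in Ltb4r2-/- and WT cells were 2.73 and 2.48 for Arg1, 2.96 and 2.54 for Clec7a, 3.15 and 1.87 for Cd36, 5.79 and 4.12 for Itgax, and 3.32 and 3.18 for Cd74. They were 6.78 and 6.85 for Tbc1d17, -2.15 and -1.90 for Apoe, and -3.88 and -4.02 for Cx3cr1. None of these 8 genes passed edgeR's test of the difference between genotypes, which called 1 gene in all (at an unadjusted p under 0.05 it had 123 of 2682).

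**Figure D5:**
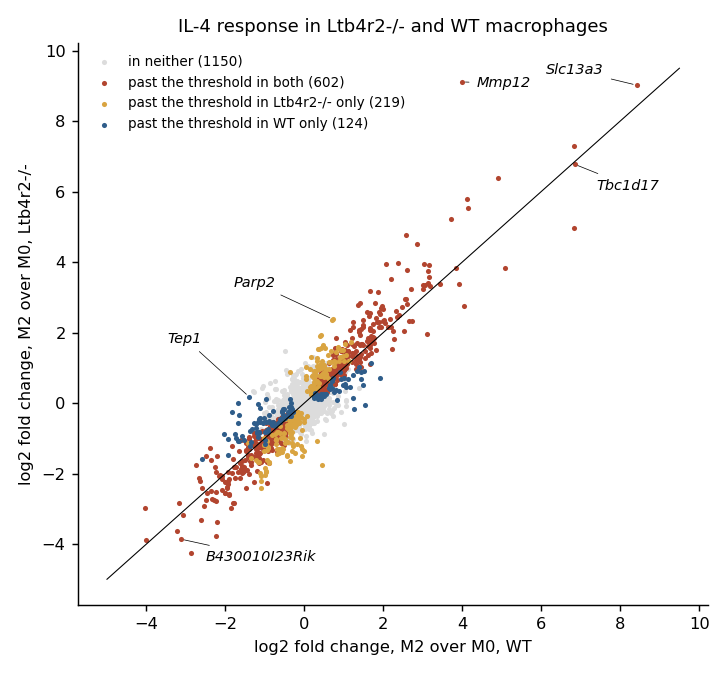
Log2 fold change (M2 over M0) in Ltb4r2-/- macrophages (vertical axis) against that in WT macrophages (horizontal axis) for 2095 genes tested in both, with the line of equal change. The 602 genes called in both genotypes (red) lie in the upper right and lower left, and Tep1 lies off the line with a log2 fold change of 0.18 in Ltb4r2-/- and -1.40 in WT cells.

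The gene whose IL-4 response differed was Tep1, the telomerase-associated protein 1 gene (1 of 2682 genes, 0.0373%). Tep1 had 263, 215, 171 and 214 counts in Ltb4r2-/- M2 libraries, against 180, 263, 217 and 228 in Ltb4r2-/- M0 libraries, and these overlapped (log2 fold change 0.18 ± 0.12, adjusted p = 0.27). It had 384, 374, 624 and 408 counts in WT M2 libraries, against 1350, 1145, 1305 and 1140 in WT M0 libraries, which did not overlap (log2 fold change -1.40). The response in Ltb4r2-/- cells minus that in WT cells was 1.56 ± 0.16 (adjusted p = 2.75e-06). In both states Tep1 was lower in Ltb4r2-/- cells, at 438 ± 43.3 CPM in Ltb4r2-/- M2 and 922 ± 153 CPM in WT M2 libraries, and at 392 ± 44.7 CPM in Ltb4r2-/- M0 and 2429 ± 94.4 CPM in WT M0 libraries (SD, n = 4 each). Tep1 lies at chr14:50824059-50870560, on the same chromosome as the deleted gene Ltb4r2 at chr14:55761428-55765138.

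The next genes by p value did not pass. Cyb5r3, a cytochrome b5 reductase gene, rose in Ltb4r2-/- cells (log2 fold change 0.96) and had 0.15 in WT cells, a difference of 0.77 ± 0.20 (adjusted p = 0.59). Exosc9 had 1630 ± 263 CPM in Ltb4r2-/- M2 and 180 ± 51.7 CPM in Ltb4r2-/- M0 libraries, with 1607 ± 239 CPM in WT M2 and 507 ± 298 CPM in WT M0 libraries, a difference of 1.49 ± 0.40 (adjusted p = 0.59). Its WT M0 libraries ranged widely, with 205, 332, 87 and 366 counts. Parp2, a DNA damage-activated ADP-ribosyltransferase gene, had 106, 71, 115 and 101 counts in Ltb4r2-/- M2 libraries, against 13, 27, 29 and 21 in Ltb4r2-/- M0 libraries. Parp2 lies at chr14:50807841-50821301, near Tep1 and on the same chromosome as the deleted gene Ltb4r2. In WT cells it had 24, 23, 13 and 14 counts in M2 libraries and 4, 19, 15 and 9 in M0 libraries, a difference of 1.62 ± 0.49 (adjusted p = 0.757). The differences for Ints8 and Oraov1, 1.15 and 0.99, did not pass either. Without WT M0 replicate 3, Exosc9 and Ints8 passed and 3 genes were called in all. For B430010I23Rik the fall was larger in Ltb4r2-/- cells by a difference of -0.75 ± 0.20 (adjusted p = 0.59).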

How the data were processed

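Bone marrow-derived macrophages were sequenced as polyA RNA from strand-specific libraries. The raw counts per gene were produced by the authors through Rosalind (cutadapt, STAR to mm10, HTSeq) and deposited as one table with a column per library; tool versions are not given in the sources used here. A deposited table of log2 values of the same counts, scaled by DESeq2 size factors, was not used. Samples were grouped by the genotype and state in their labels, and replicates are labelled as biological.

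The 8 Ltb4r2-/- libraries were fitted with edgeR 4.0.16 (R 4.3.3) on genes kept by filterByExpr (minimum count 10, minimum total 15), with TMM scaling and the quasi-likelihood test at a Benjamini-Hochberg adjusted p of 0.05. WT libraries were fitted alone in the same way, and the difference between genotypes in 16 libraries. CPM used TMM-scaled library sizes, and the standard error (SE) was taken from the F statistic, as the size of the log2 fold change over its square root. On simulated counts with 4 against 4 libraries, the test recovered 32.8% of 1.5-fold, 65.7% of 2-fold and 86.4% of 4-fold changes. The simulation changed far fewer genes than were called in the data, and a changed gene lost to the filter counted as missed. These shares are thus not the power of this comparison. Opposite-strand overlaps were taken from GENCODE M21 (GRCm38), where 24213 genes were placed, and 26 symbols stored as dates were restored.

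Deviations from the group means of same-numbered M2 and M0 libraries correlated at 0.34 to 0.54 in Ltb4r2-/- and 0.42 to 0.49 in WT cells. Some libraries with different numbers correlated as strongly, up to 0.43 (M2 replicate 3 with M0 replicate 2) in Ltb4r2-/- and 0.44 (M2 replicate 4 with M0 replicate 2) in WT cells. In Ltb4r2-/- cells the positive values followed the Tsix split of replicates 1 and 4 against 2 and 3, so these values do not separate pairing by number from that split. A fit with the number as a block was an alternative. The genes named were the 15 largest changes and 5 highest counts in each direction among called genes with a mean of at least 50 counts and groups that did not overlap, the 4 smallest p values of each of 31 gene lists, all IL-4 markers with a count, the 5 smallest p values of the difference in each direction, and opposite-strand partners. Other list members and opposite-strand symbols were named after their values were seen. The genes and lists were chosen with earlier results of these data known. M1 libraries were not compared here and entered only the alternative fits of all 24 libraries.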

Additional observations from a re-analysis of the deposited data

Results flagged for a closer look

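The IL-4 response of Tep1 differed between genotypes by 1.56 on the log2 scale (Ltb4r2-/- minus WT), the only gene past the threshold in the test of the difference. Among the 63 genes described most closely, 119 groups of 4 libraries were searched for a single library far from the rest. Chance marks about 1 in 20 such groups, or 5.95 here, and 7 were marked. Tbc1d17 was high in M2 replicate 3 (1529 CPM, against a median of 1335 CPM in the other M2 libraries). Cyb5r3 was low in replicate 3 of both states, at 325 CPM in M2 (others 404 CPM) and 139 CPM in M0 (others 218 CPM). Clic4 was high in M0 replicate 4 (39.6 CPM, others 22.5 CPM) and Selenop was low in M0 replicate 1 (69.9 CPM, others 98.9 CPM). Itgax in M0 replicate 2 (3.38 CPM, others 0) and Ltb4r2 in M2 replicate 4 (3.87 CPM, others 0) each rest on 2 counts.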

How the results depend on the processing

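No gene called in Ltb4r2-/- cells changed direction under any alternative. The 861 calls (451 higher, 410 lower) were 545 (284 and 261) with a filter at a mean of 50 counts, 187 (97 and 90) when only the 705 genes without an opposite-strand exon overlap were fitted, and 410 (229 and 181) when tested against a 1.5-fold change. Each of these tests fewer genes or a larger effect. Leaving out 1 library at a time gave 816 to 940 calls (425 to 485 higher, 374 to 455 lower) in Ltb4r2-/- cells and 626 to 822 (328 to 425 and 287 to 397) in WT cells. RLE scaling gave 865 calls, DESeq2 880, no filter 928 and the replicate block 884, of which 837 were shared with the 861. The block changed the call of no named gene. For the difference between genotypes, all fits called Tep1 alone except the one with no filter, which called 10 genes (8 higher and 2 lower in Ltb4r2-/- cells, among them Exosc9, Ints8, Oraov1, Mmp12 and B430010I23Rik), and the one without WT M0 replicate 3, which called 3 (Tep1, Exosc9 and Ints8, all higher). The count ranged over 1 to 3 without single libraries, with 0 lower. The cause was not tested. Of the values of 168 named genes under alternatives, 2651 kept their call, 34 lost it, 14 gained one and 0 reversed. Depth limits the sparse genes most, and 22 of 27 IL-4 markers with a count could not be tested. The list counts and the Tep1 difference without M2 replicate 1, and the symbols opposite list members, were added after seeing the data.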
